A study of Mus musculus with 12 samples.

Results

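Meiotic recombination and homologous repair were represented by 38 genes, listed by symbol and matched by symbol to the gene identifiers of the count table, which holds 53715 genes. All 38 were found, and all 38 had enough counts to be tested among the 19815 genes that passed the filter on low counts. The genes were measured in spermatogonia, the mitotic germ cells that line the wall of the seminiferous tubule, sorted from testes of C57BL6/129 mice. Libraries were made by Smart-seq2, which copies whole transcripts from few cells, with 1000 sorted cells in each. The 4 groups were WT at 3 months, Tet1KO at 3 months, WT at 11 months and Tet1KO at 11 months, with 3 libraries each and no other allele or agent named. Tet1 encodes an enzyme that oxidises 5-methylcytosine in DNA. The labels give neither the exons that the Tet1KO allele lacks nor the surface markers of the sort, and they name no animals behind the libraries. The p-values below therefore rest on the spread between libraries alone, which may be technical.

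In meiosis, homologous chromosomes exchange DNA after the cell cuts its own chromosomes at many sites. PRDM9 marks the sites on chromatin, SPO11 with MEI1, MEI4 and other partners makes the breaks, and the cut ends are trimmed, coated with single-strand binding proteins and loaded with recombinases such as DMC1, which search the homolog. A few of the resulting joints are made into crossovers by a dedicated set of proteins. Many of these genes are first transcribed in late differentiating spermatogonia and preleptotene spermatocytes under the transcriptional regulators STRA8 and MEIOSIN, before the breaks form. The repair genes that mitotic cells also use, among them Brca1, Brca2, Atm, Atr and the subunits of replication protein A, are active in dividing cells in general.

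Total counts ran from 8325159 to 18223645 per library, so that 3 counts, the limit allowed by a count of 0, equal 0.162 to 0.402 CPM (counts scaled to library size with TMM factors). These limits cover counting error only. Tet1 itself lay near that limit, with counts of 15, 16 and 0 (WT) and 6, 11 and 18 (Tet1KO) at 3 months, then 1, 16 and 5 (WT) and 1, 17 and 5 (Tet1KO) at 11 months. Tet1 thus did not separate the labels, which are used as names, and counts over the whole gene do not check an allele whose missing exons are not given. The germ cell genes Dazl (1930 to 2180 CPM as group means) and Ddx4 (294 to 345 CPM) were abundant in every group. WT replicate 1 and Tet1KO replicate 2 of 3 months stood apart from the other 10 libraries on the first principal component, at -131 and -121 against -38.9 or above. In the same libraries the summed level of 10 pachytene spermatocyte markers was 2140 and 2160 CPM, against 137 to 510 CPM in the others, and none of these markers was at 0 in all libraries. In these bulk libraries, fewer cells of a type and less RNA per cell cannot be told apart.

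The promoters of 5 members, picked after their values were seen, are shown first. Hormad1, Prdm9, Hfm1 and Dmc1 were all lowest in the same library, Tet1KO replicate 2 of 11 months, and Trip13 hardly varied. Each window runs from 250 bases before to 30 bases after the outermost RefSeq transcription start in build GRCm38.p6, 5′ to 3′ on the gene's strand. Capitals mark exact matches, on either strand, to the letters TCCCGC (the core of an E2F site, a cell cycle element), CACGTG (an E-box) or CNCCTCAG (a sequence reported as bound by STRA8). In Prdm9 a match to TCCCGC and a match to CNCCTCAG overlap and are printed as a single run of capitals.
Hormad1, chr3:95559427-95559706, plus strand: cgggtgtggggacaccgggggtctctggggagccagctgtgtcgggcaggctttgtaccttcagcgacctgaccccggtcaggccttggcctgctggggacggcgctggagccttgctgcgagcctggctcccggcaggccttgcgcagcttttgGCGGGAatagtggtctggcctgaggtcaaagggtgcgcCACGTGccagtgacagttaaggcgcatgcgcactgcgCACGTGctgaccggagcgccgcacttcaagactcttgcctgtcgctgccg
Prdm9, chr17:15564325-15564604, minus strand: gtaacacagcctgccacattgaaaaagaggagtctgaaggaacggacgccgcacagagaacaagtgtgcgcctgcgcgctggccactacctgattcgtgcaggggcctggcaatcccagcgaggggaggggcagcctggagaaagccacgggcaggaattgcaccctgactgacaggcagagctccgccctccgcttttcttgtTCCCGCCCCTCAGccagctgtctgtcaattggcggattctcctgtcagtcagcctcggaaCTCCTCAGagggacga
Dmc1, chr15:79605080-79605359, minus strand: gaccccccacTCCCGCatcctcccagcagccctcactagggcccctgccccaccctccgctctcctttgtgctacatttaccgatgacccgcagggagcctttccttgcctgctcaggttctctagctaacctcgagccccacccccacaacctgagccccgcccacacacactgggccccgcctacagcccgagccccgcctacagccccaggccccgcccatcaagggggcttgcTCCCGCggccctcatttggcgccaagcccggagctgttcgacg
Hfm1, chr5:106925861-106926140, minus strand: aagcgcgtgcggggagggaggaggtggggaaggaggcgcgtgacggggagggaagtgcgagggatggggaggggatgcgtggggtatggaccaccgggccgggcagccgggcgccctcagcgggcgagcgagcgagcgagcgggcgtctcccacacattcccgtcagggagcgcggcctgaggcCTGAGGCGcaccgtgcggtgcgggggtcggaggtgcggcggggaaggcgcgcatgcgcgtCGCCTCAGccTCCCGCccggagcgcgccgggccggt
Trip13, chr13:73937738-73938017, minus strand: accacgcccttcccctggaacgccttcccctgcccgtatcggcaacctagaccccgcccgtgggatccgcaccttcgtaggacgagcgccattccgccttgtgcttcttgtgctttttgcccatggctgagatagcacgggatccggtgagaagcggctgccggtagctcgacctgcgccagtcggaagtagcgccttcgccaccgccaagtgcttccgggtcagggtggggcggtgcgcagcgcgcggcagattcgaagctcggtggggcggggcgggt

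Such a window was found for 29 of the 38 members. No window was used for Nbn, Majin, Meiob, Spo11, Tex11, Exo1, Rad50, Terb2 and Tex15. TCCCGC occurred in 17 of the 29 (58.6%), against 18.8% of the 27025 genes with such a window, expressed or not. CCAAT, also searched and not marked above, occurred in 15 (51.7%), against 36.7%. CNCCTCAG occurred in 4 (13.8%), Hfm1, Hormad2, Msh5 and Prdm9, against 7.3% of all genes, and CACGTG in 3 (10.3%), Cntd1, Hormad1 and Rpa1, against 6.9%. The members' windows held a median of 20 CpG dinucleotides (1 to 40), against 7 over all genes, and Hfm1 had the 40. A match is a description of the letters and not a bound site, and DNA methylation was not measured in these libraries. TCCCGC occurred on both sides of the pattern between libraries described below. Rad51c and Rpa1, which varied little, had it. Hormad2, Rad21l and Mei4, lowest in Tet1KO replicate 2 of 11 months, did not. A relation of matches to levels was not tested.

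Transcripts of all 38 members were detected in these libraries of sorted spermatogonia, and none was at 0 in any library. Markers of pachytene spermatocytes and spermatids were detected in every library too. Presence in the spermatogonia themselves was thus not shown for each member. Between genes, levels are compared as RPKM, the CPM per kilobase of merged exon length, over the 12 libraries. Hormad1, which encodes a chromosome axis protein that monitors pairing, led with a median of 280 RPKM (84.4 to 435), a level above that of 98.6% of the genes tested. It was followed by Rpa3 (115 RPKM) and Rpa2 (92.6 RPKM), the small subunits of the single-strand binding complex, by Tex11 (101 RPKM), an X-linked crossover gene, and by Psmc3ip (75.1 RPKM), whose product with MND1 helps the recombinases. Tex15 (56.6 RPKM), a germ cell gene needed for recombinase loading and for transposon silencing, and Dmc1 (54.5 RPKM), the meiosis-specific recombinase, came next. At the lower end stood 5 members below the median of all genes tested (3.08 RPKM): Msh4 (2.23 RPKM), Spo11 (1.86 RPKM, 1.29 to 7.08), Msh5 (1.85 RPKM), Spata22 (1.21 RPKM) and Mlh3 (1.18 RPKM). Thus Dmc1, Hormad1 and Tex15 were abundant in libraries in which the nuclease gene Spo11 was scarce. Spo11 was not scarce in WT replicate 1 and Tet1KO replicate 2 of 3 months, at 22.7 and 27.8 CPM. RPKM also depends on the merged exon length, 3921 bases for Spo11 and 2435 for Dmc1. That length need not be the length transcribed in these cells. Neighbours in this order had overlapping ranges over the 12 libraries, except Trip13 (30.2 to 41.7 RPKM) above Cntd1 (18.2 to 27.4 RPKM).

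**Figure D1:**
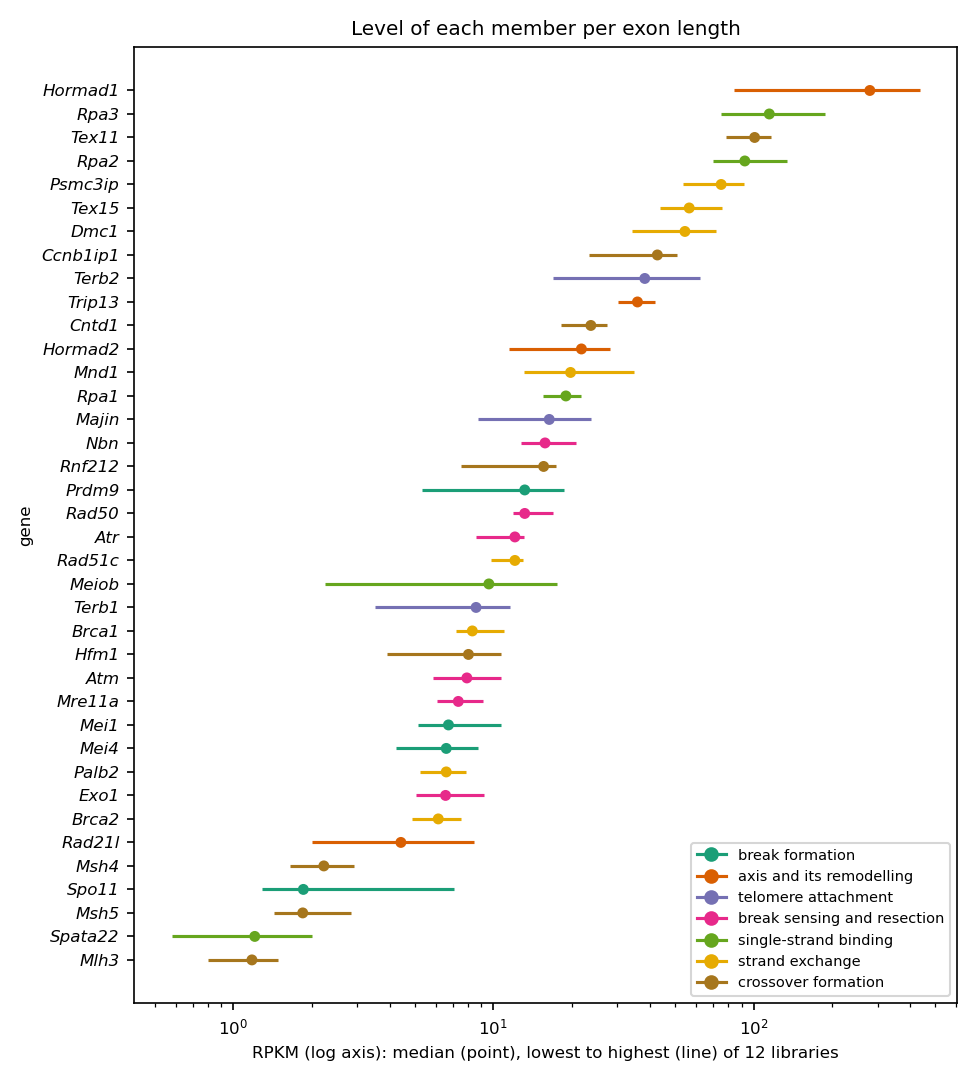
Levels of the 38 members as RPKM on a log axis, sorted by median; points are medians and lines run from the lowest to the highest of the 12 libraries, coloured by role. Hormad1 leads at a median of 280 RPKM, and Mlh3 and Spata22 are lowest at 1.18 and 1.21 RPKM.

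Exons of 10 members overlap exons of another gene in the annotation, and counting ignored strand, so part of their counts cannot be assigned to one gene. They are Mre11a (with Ankrd49), Atr, Rpa1, Spata22 (Gm49340), Psmc3ip (Mlx), Brca2, Palb2, Msh4, Ccnb1ip1 (Rpph1) and Cntd1 (Becn1 and Coa3). The values of these members are uncertain to that extent.

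Medians of the spread between libraries differed by role, but the ranges of many roles overlapped. The spread is given as the ratio of the highest to the lowest CPM over the 12 libraries. Its median was 3.34 (1.38 to 5.15) for the 4 axis genes and 3.32 (2.72 to 3.66) for the 3 telomere attachment genes. For the 4 break formation genes it was 2.78 (2.07 to 5.48). For the 6 genes of break sensing and resection it was 1.58 (1.43 to 1.84). The 8 genes of strand exchange had a median of 1.62 (1.33 to 2.64). Single-strand binding genes (median 2.53) ran from 1.4 for Rpa1 to 7.8 for Meiob. Crossover genes had a median of 1.92 (1.49 to 2.75). Such a ratio rests on the extreme libraries alone. Tet1KO replicate 2 of 11 months was the lowest for 3 of 4 axis, 2 of 3 telomere and 2 of 4 break formation genes. It was also the lowest for 4 of 8 crossover and 2 of 8 strand exchange genes, and for 1 each of the remaining roles. The groups are small, and the ratio was not computed over all genes tested. The widest ratios belonged to the meiotic genes Meiob (7.8), Spo11 (5.48), Hormad1 (5.15) and Rad21l (4.21), and the narrowest to Rad51c (1.33), Trip13 (1.38) and Rpa1 (1.4).

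**Figure D2:**
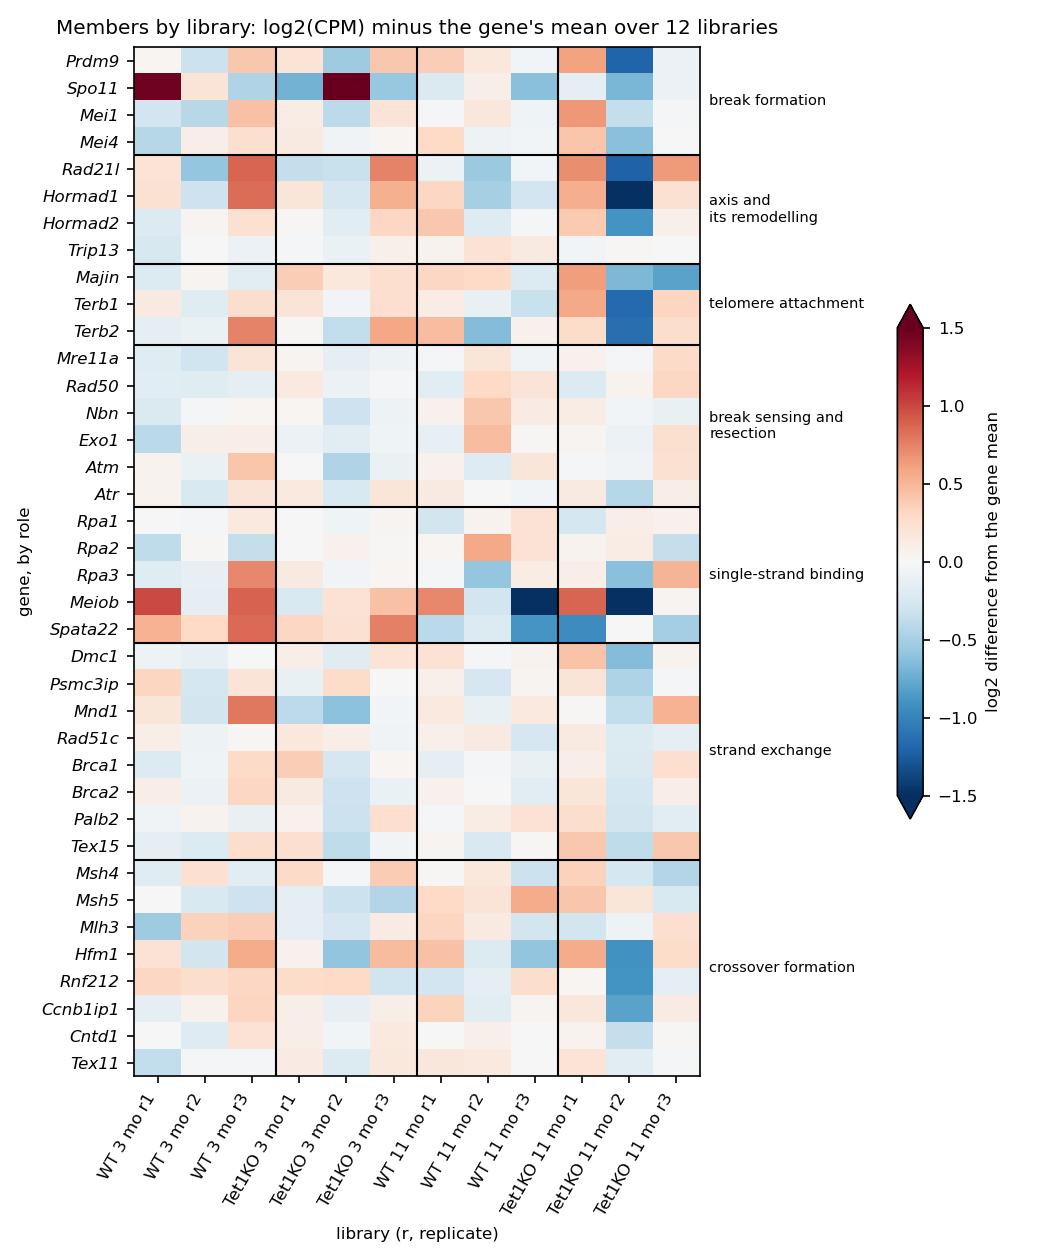
Each cell is the log2 CPM of a member in a library minus that gene's mean over the 12 libraries, with genes in rows by role, libraries in columns by group, and the colour scale ending at 1.5 in each direction. The column of Tet1KO replicate 2 at 11 months is blue, below the gene mean, for the axis genes other than Trip13 and for the telomere and break formation genes. The strand exchange genes, the crossover genes other than Msh5, and Meiob, Rpa3 and Atr are also below their means there. Spo11 is high in WT replicate 1 and Tet1KO replicate 2 of 3 months.

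Among the break formation genes, Prdm9, the histone methyltransferase that places the breaks, stood at 54.1, 42.4 and 70.2 CPM (WT) and 60.9, 36.7 and 70.3 CPM (Tet1KO) at 3 months, then at 68.4, 59.2 and 51.3 CPM (WT) and 80.4, 23 and 50 CPM (Tet1KO) at 11 months. Its highest and lowest libraries were thus replicates 1 and 2 of the same group, Tet1KO at 11 months. Spo11, which encodes the enzyme that cuts, stood at 22.7, 9.44 and 6.04 CPM (WT) and 5.06, 27.8 and 5.58 CPM (Tet1KO) at 3 months, then at 7.13, 8.81 and 5.37 CPM (WT) and 7.45, 5.12 and 7.77 CPM (Tet1KO) at 11 months. Spo11 was high in the 2 libraries with the high pachytene marker sums, one of each genotype, and lay between 5.06 and 9.44 CPM in the other 10. The part of those spermatocyte transcripts in its level was not tested. Mei1, a partner of SPO11, stood at 26.5, 24.3 and 43.7 CPM (WT) and 34.8, 24.6 and 36.9 CPM (Tet1KO) at 3 months, then at 32, 36.2 and 30.9 CPM (WT) and 50.6, 25.2 and 31.7 CPM (Tet1KO) at 11 months. Mei4, another partner, ran from 17.4 to 36 CPM. Both were highest in Tet1KO replicate 1 of 11 months, and neither was high in the libraries rich in Spo11.

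Axis genes other than Trip13 shared that low library. Hormad1 stood at 491, 339 and 752 CPM (WT) and 477, 353 and 610 CPM (Tet1KO) at 3 months, then at 519, 298 and 344 CPM (WT) and 612, 146 and 494 CPM (Tet1KO) at 11 months. The values of the 4 groups overlapped, and the largest gap lay within Tet1KO at 11 months. Hormad2, its paralog, stood at 50.4, 60 and 68.6 CPM (WT) and 59, 52 and 72.6 CPM (Tet1KO) at 3 months, then at 77.2, 50.8 and 57.8 CPM (WT) and 76.4, 31.4 and 61.6 CPM (Tet1KO) at 11 months. Rad21l, a meiotic cohesin subunit, stood at 8.85, 5.13 and 14 CPM (WT) and 5.99, 6.09 and 12.8 CPM (Tet1KO) at 3 months, then at 7.19, 5.19 and 7.46 CPM (WT) and 12.4, 3.31 and 11.9 CPM (Tet1KO) at 11 months. Hormad1, Hormad2 and Rad21l were thus all lowest in Tet1KO replicate 2 of 11 months, and Hormad1 and Rad21l were highest in WT replicate 3 of 3 months. Trip13, the ATPase that removes HORMAD proteins from the axis, was an exception among axis genes, at 105, 124 and 117 CPM (WT) and 122, 116 and 131 CPM (Tet1KO) at 3 months, then at 129, 145 and 136 CPM (WT) and 121, 126 and 125 CPM (Tet1KO) at 11 months. Its level in Tet1KO replicate 2 of 11 months differed from its mean by 0.02 on the log2 scale, where Hormad1 differed by -1.52.

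Telomere attachment genes, whose products tie chromosome ends to the nuclear envelope for pairing, were also low there. Terb2 ran from 35.9 to 131 CPM and Terb1 from 13.2 to 43.7 CPM, and both were lowest in Tet1KO replicate 2 of 11 months. Majin ran from 14.4 CPM in Tet1KO replicate 3 of 11 months to 39 CPM in replicate 1 of the same group, with 15.8 CPM in replicate 2.

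Break sensing and resection genes were steady. Atm, the kinase that responds to breaks, stood at 85.7, 77.4 and 111 CPM (WT) and 82.4, 60.4 and 77.1 CPM (Tet1KO) at 3 months, then at 86.4, 72.5 and 94.1 CPM (WT) and 81.2, 79.7 and 97.2 CPM (Tet1KO) at 11 months. Exo1, a nuclease that trims the ends, stood at 42.6, 59.5 and 60.2 CPM (WT) and 52.8, 49.8 and 53.6 CPM (Tet1KO) at 3 months, then at 51.4, 77.4 and 56.8 CPM (WT) and 57.6, 53 and 66.4 CPM (Tet1KO) at 11 months. Both genes varied by less than the axis genes other than Trip13, and their groups overlapped, with Exo1 highest in WT replicate 2 of 11 months. Mre11a, Rad50 and Nbn, which encode the subunits of the complex that opens the ends, had ratios of highest to lowest of 1.5, 1.43 and 1.63. Atr, a kinase that acts on single-stranded DNA, ran from 202 to 310 CPM and was the only gene of the 6 that was lowest in Tet1KO replicate 2 of 11 months.

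Single-strand binding genes comprise the subunits of replication protein A, with ratios of 1.4 (Rpa1), 1.94 (Rpa2) and 2.53 (Rpa3), and the meiotic genes Meiob and Spata22, with 7.8 and 3.45. Rpa2 stood at 209, 276 and 213 CPM (WT) and 271, 285 and 276 CPM (Tet1KO) at 3 months, then at 278, 405 and 316 CPM (WT) and 283, 295 and 213 CPM (Tet1KO) at 11 months. Meiob, which encodes a meiosis-specific partner of that complex, stood at 29.9, 13.7 and 27.8 CPM (WT) and 12.8, 17.4 and 20.4 CPM (Tet1KO) at 3 months, then at 24.8, 12.3 and 3.84 CPM (WT) and 27.5, 5.12 and 15.4 CPM (Tet1KO) at 11 months. Its spread within each 11-month group was larger than any difference between group means. Spata22, the partner of MEIOB, was the member with the fewest counts, 7 to 31 per library, and is described with age below.

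Strand exchange genes ranged from Rad51c, a repair gene of mitotic and meiotic cells and the member with the narrowest range, to Mnd1 (11.5 to 30.3 CPM, a ratio of 2.64). Rad51c stood at 55, 48.6 and 51.9 CPM (WT) and 57.2, 54.7 and 49.5 CPM (Tet1KO) at 3 months, then at 54, 56.3 and 43.1 CPM (WT) and 56.3, 44.5 and 46.4 CPM (Tet1KO) at 11 months. Dmc1 stood at 123, 119 and 131 CPM (WT) and 139, 115 and 150 CPM (Tet1KO) at 3 months, then at 151, 127 and 135 CPM (WT) and 175, 82.7 and 135 CPM (Tet1KO) at 11 months. All libraries but the lowest lay between 115 and 175 CPM, and Tet1KO at 11 months again held both ends. Brca1, which directs ends to homologous repair, stood at 63.4, 70.1 and 89.1 CPM (WT) and 94, 61.2 and 74.3 CPM (Tet1KO) at 3 months, then at 65.9, 71.5 and 67.5 CPM (WT) and 78.3, 63 and 86.9 CPM (Tet1KO) at 11 months. Brca2, which loads the recombinases, stood at 87.8, 77.1 and 102 CPM (WT) and 90.3, 66.1 and 76.6 CPM (Tet1KO) at 3 months, then at 85.7, 81.9 and 73.5 CPM (WT) and 93.3, 68.4 and 88.1 CPM (Tet1KO) at 11 months. Its partner gene Palb2 ran from 38.5 to 57.4 CPM, and Brca1, Brca2 and Palb2 were all lowest in Tet1KO replicate 2 of 3 months. Tex15 stood at 500, 477 and 657 CPM (WT) and 654, 423 and 533 CPM (Tet1KO) at 3 months, then at 563, 467 and 555 CPM (WT) and 728, 423 and 724 CPM (Tet1KO) at 11 months. Groups overlapped for each of these genes.

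Crossover genes likewise mixed steady and variable members. Hfm1, a helicase that channels joints to crossovers, stood at 56.5, 40.2 and 71.5 CPM (WT) and 50.8, 32.3 and 67.8 CPM (Tet1KO) at 3 months, then at 66, 42.1 and 32.3 CPM (WT) and 71.4, 26 and 59.1 CPM (Tet1KO) at 11 months. Tex11 stood at 284, 363 and 364 CPM (WT) and 402, 319 and 410 CPM (Tet1KO) at 3 months, then at 413, 408 and 368 CPM (WT) and 424, 327 and 365 CPM (Tet1KO) at 11 months. Hfm1 had a ratio of highest to lowest of 2.75 and Tex11 of 1.49. Rnf212, which encodes a protein that stabilises crossover intermediates, stood at 28.7, 27.7 and 28.6 CPM (WT) and 28, 28.4 and 18.8 CPM (Tet1KO) at 3 months, then at 19, 21 and 27.7 CPM (WT) and 23.6, 12.4 and 21.1 CPM (Tet1KO) at 11 months. Ccnb1ip1, its antagonist, ran from 43.8 to 96.1 CPM, and both were lowest in Tet1KO replicate 2 of 11 months. Msh4, which with Msh5 encodes the clamp on crossover joints, stood at 13.6, 18.1 and 13.7 CPM (WT) and 18.8, 15.1 and 20 CPM (Tet1KO) at 3 months, then at 15.6, 17.2 and 12.3 CPM (WT) and 19.6, 12.8 and 11.4 CPM (Tet1KO) at 11 months. Msh5 stood at 10.7, 9.13 and 8.59 CPM (WT) and 9.71, 8.52 and 7.88 CPM (Tet1KO) at 3 months, then at 13.1, 12.2 and 15.7 CPM (WT) and 14.2, 12.1 and 9.11 CPM (Tet1KO) at 11 months. Mlh3, which encodes a subunit of the nuclease that resolves the joints, stood at 6.05, 11.1 and 11.3 CPM (WT) and 7.96, 7.39 and 9.52 CPM (Tet1KO) at 3 months, then at 11, 9.63 and 7.24 CPM (WT) and 7.27, 8.34 and 10.4 CPM (Tet1KO) at 11 months. Of these 3 low genes, Msh5 alone had WT libraries of 11 months that all lay above those of 3 months. Cntd1, a late crossover gene, stayed within a ratio of 1.5.

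**Figure D3:**
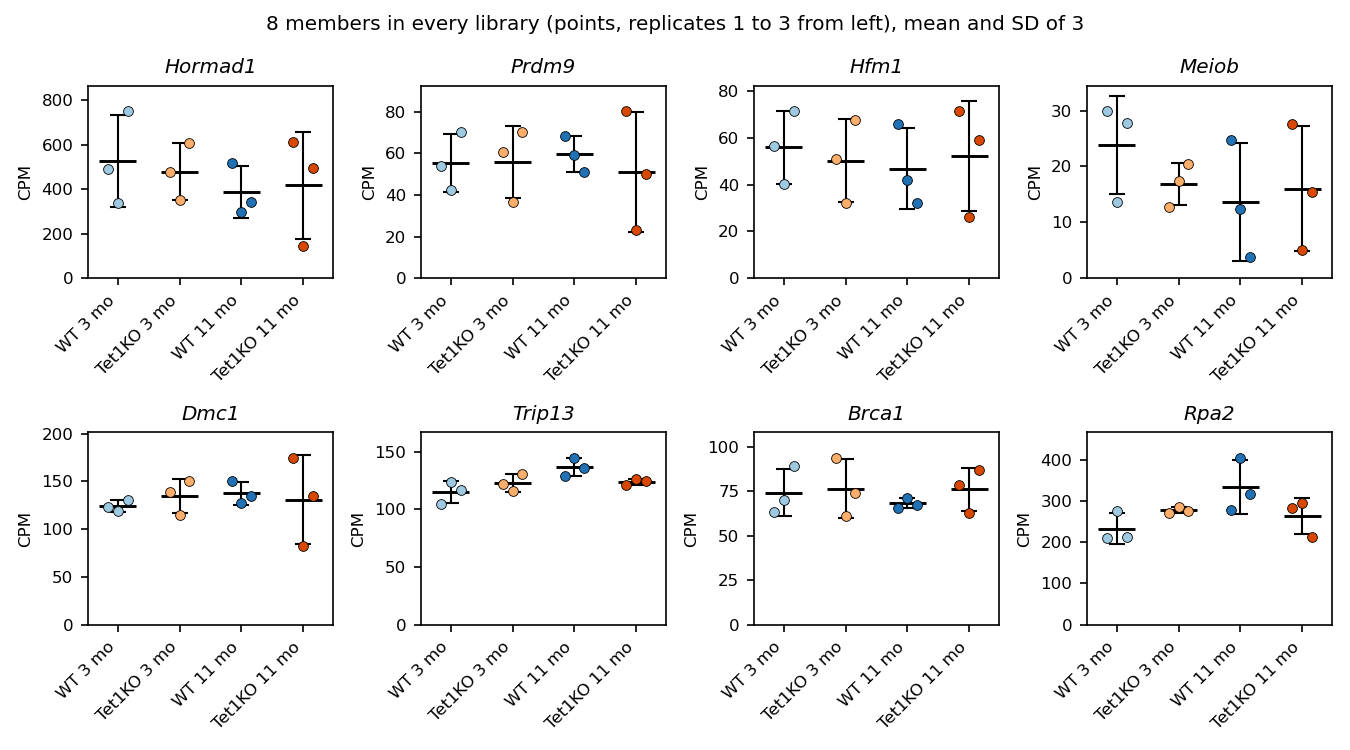
CPM of 8 members in every library, with points for replicates 1 to 3 from left to right and a bar and whiskers for the mean and SD of 3 libraries in each group; each axis starts at 0. Hormad1, Prdm9, Hfm1 and Dmc1 share a low point in Tet1KO replicate 2 of 11 months (146, 23, 26 and 82.7 CPM), where Trip13 (126 CPM) and Rpa2 (295 CPM) have none.

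Counted over the list, Tet1KO replicate 2 of 11 months was the lowest of the 12 libraries for 15 of the 38 members (39.5%), against 12.2% of all genes tested, and it was the highest for 0. The 15 were 3 of 4 axis genes, 2 of 3 telomere genes, 2 of 4 break formation genes, 4 of 8 crossover genes, 2 of 8 strand exchange genes, and 1 each of the 6 sensing and the 5 single-strand binding genes. The median member lay 0.37 below its own mean there on the log2 scale (-0.37), where the median of all genes was 0.052. In the opposite direction, WT replicate 3 of 3 months was the highest library for 12 members (31.6%, against 10.4% of all genes) and Tet1KO replicate 1 of 11 months for 9 (23.7%, against 5.87%). The 64 other genes of the pathway showed Tet1KO replicate 2 of 11 months lowest for 27 (42.2%). Replicates 1 and 2 of Tet1KO at 11 months, at opposite ends of this pattern, carry the same labels. The pattern rests on TMM scaling and was not recomputed under other scalings. The TMM factor was highest in Tet1KO replicate 2 of 11 months (1.161) and lowest in WT replicate 3 of 3 months (0.8967). It was 0.9964 in Tet1KO replicate 1 of 11 months.

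Stra8, the inducer of the meiotic programme and one of those 64 genes, was lowest in the same library. It stood at 646, 647 and 910 CPM (WT) and 524, 365 and 1130 CPM (Tet1KO) at 3 months, then at 968, 701 and 645 CPM (WT) and 1140, 240 and 488 CPM (Tet1KO) at 11 months. Over the 7 markers of differentiating spermatogonia, all tested and none at 0 in all libraries, summed levels ran from 858 to 1120 CPM (WT) and 607 to 1370 CPM (Tet1KO) at 3 months, then from 867 to 1170 CPM (WT) and 512 to 1350 CPM (Tet1KO) at 11 months, and Stra8 was the most abundant of the 7 in every library. Kit, the receptor of differentiating spermatogonia, was 95 CPM in Tet1KO replicate 2 of 11 months against 62.1 to 110 CPM elsewhere, and Sohlh1 was highest there at 46.9 CPM, and of the 7 markers Stra8 alone was lowest there. The 10 markers of undifferentiated spermatogonia summed to 590 CPM in that library, above the 324 to 545 CPM of the others. Sycp3, a component of the chromosome axis and no member, was also lowest there at 463 CPM, against 801 to 2100 CPM. The part of stage composition in the members' levels was not tested.

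**Figure D4:**
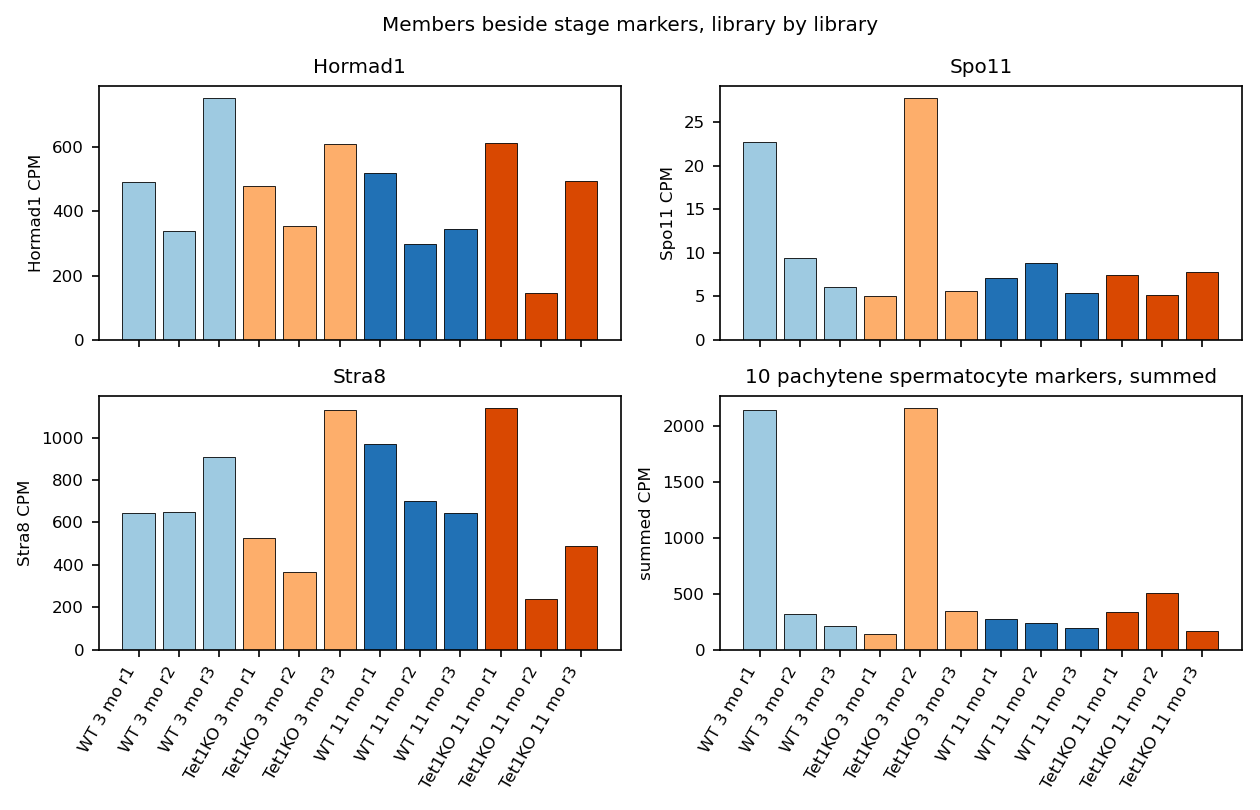
CPM of Hormad1, Stra8 and Spo11 and the summed CPM of 10 pachytene spermatocyte markers in each of the 12 libraries, as bars from 0 coloured by group. Hormad1 (146 CPM) and Stra8 (240 CPM) are lowest in Tet1KO replicate 2 of 11 months, and Spo11 is highest in the 2 libraries with marker sums of 2140 and 2160 CPM.

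At 3 months, no member differed between Tet1KO and WT in edgeR's quasi-likelihood test with Benjamini-Hochberg adjustment at 0.05 (0 of 38, against 0% of the 19815 genes tested). At an unadjusted p under 0.05 the count was also 0, against 0.454% of all genes higher and 0.681% lower, and DESeq2 and limma-voom likewise called 0 members. The members split evenly, 19 higher (46.8% of all genes were higher) and 19 lower in Tet1KO, with a median log2 fold change of -0.0062 against -0.022 over all genes. That median was 0.16 without WT replicate 3. Within the libraries whose codes begin with DY (1 of each genotype) the median member was higher in Tet1KO by 0.12 on the log2 scale (30 of 38 members higher), and within those that begin with AK (2 of each) the median was -0.11 (13 higher). Markers of other cells differed in the same comparison, none past the adjusted threshold: all 8 tested Sertoli markers were lower in Tet1KO (median log2 fold change -1.7), with summed levels of 93.4 to 274 CPM (WT) and 25.6 to 78.6 CPM (Tet1KO), and all 8 spermatid markers were lower (median -0.52, 472 to 2720 and 631 to 1290 CPM). Lower were also 9 of 10 leukocyte markers (median -0.22) and 6 of 10 pachytene spermatocyte markers (-0.12). Higher were 4 of 6 peritubular myoid markers (0.19) and 8 of 10 markers of undifferentiated spermatogonia (0.31). The part of all these cells in the members' values was not tested. Mnd1 had the smallest unadjusted p: WT libraries had 19.9, 14.5 and 30.3 CPM and Tet1KO libraries 13.4, 11.5 and 17 CPM, so that the groups overlapped, and its log2 fold change was -0.62 ± 0.30 (SE), with an unadjusted edgeR p of 0.0589 and an adjusted p of 1. Without WT replicate 3 the Mnd1 value was -0.26, and with any 1 library left out it ran from -0.84 to that value. The next 4 members were Atm (-0.32 ± 0.18), Rpa2 (0.25 ± 0.18), Brca2 (-0.20 ± 0.17) and Rad50 (0.18 ± 0.16), none past the threshold. Without WT replicate 3, Atm was at -0.12 and Brca2 at -0.05. Groups did not overlap for 2 members, both higher in Tet1KO (3.32% of all genes), and for 0 lower (3.62%). One was Majin, with 32.6, 28 and 30.1 CPM (Tet1KO) above 21.9, 25.9 and 22.3 CPM (WT). The other was Rad50, with 82.1, 69.6 and 72.2 CPM (Tet1KO) above 65.5, 65 and 66.8 CPM (WT).

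At 11 months, again 0 of 38 members passed the adjusted edgeR test (0% of all genes), 0 passed at an unadjusted p under 0.05 (0.858% of all genes higher, 0.787% lower), and DESeq2 and limma-voom called 0. In Tet1KO 14 members were higher (53.8% of all genes were higher) and 24 lower, with a median log2 fold change of -0.064 against 0.024 over all genes. That median was 0.089 without Tet1KO replicate 2 and 0.013 without WT replicate 1, so that its sign rested on either library. Markers of other cells also differed, none past the adjusted edgeR threshold, though DESeq2 called the myoid marker Tpm2 (adjusted p 0.0181). All 6 peritubular myoid markers were lower in Tet1KO (median log2 fold change -2). They summed to 71.4 to 241 CPM in WT and 22.9 to 54.9 CPM in Tet1KO. Lower were also 6 of 8 Sertoli markers (median -1, 20.2 to 134 and 29.2 to 41.5 CPM). Higher were all 10 leukocyte markers (median 0.72, 86.2 to 1040 and 474 to 972 CPM) and all 8 spermatid markers (median 0.31, 283 to 2540 and 388 to 2320 CPM). Of the 10 pachytene spermatocyte markers, 9 were higher (median 0.3, 194 to 273 and 167 to 510 CPM). Among spermatogonia markers, 6 of 10 undifferentiated (median 0.34) and 3 of 7 differentiating ones (-0.0052) were higher. No marker of these lists was at 0 in all libraries, and their part in the members' values was not tested. The same-numbered libraries differed in both directions: the median member was higher in Tet1KO by 0.11 on the log2 scale in the replicate 1 pair (29 of 38 members higher), -0.43 in the replicate 2 pair (3 higher) and 0.099 in the replicate 3 pair (26 higher). Smallest in unadjusted p was Rpa2, with a log2 fold change of -0.34 ± 0.18 (SE), an unadjusted edgeR p of 0.0903 and an adjusted p of 1. Nbn (-0.22 ± 0.15), Trip13 (-0.14 ± 0.11), Tex15 (0.24 ± 0.24) and Rnf212 (-0.24 ± 0.25) followed. With 1 library left out, Rnf212 ran from -0.43 to -0.01, the latter without Tet1KO replicate 2, and Tex15 from 0.12 to 0.46, the latter also without that library. Rpa2 likewise ran from -0.46 to -0.17 and Nbn from -0.29 to -0.11, both nearest 0 without WT replicate 2. Trip13 was the only member whose groups did not overlap, lower in Tet1KO (2.54% of all genes), and 0 were higher without overlap (2.82%). The distance between its nearest libraries was small, 126 CPM in Tet1KO against 129 CPM in WT.

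**Figure D5:**
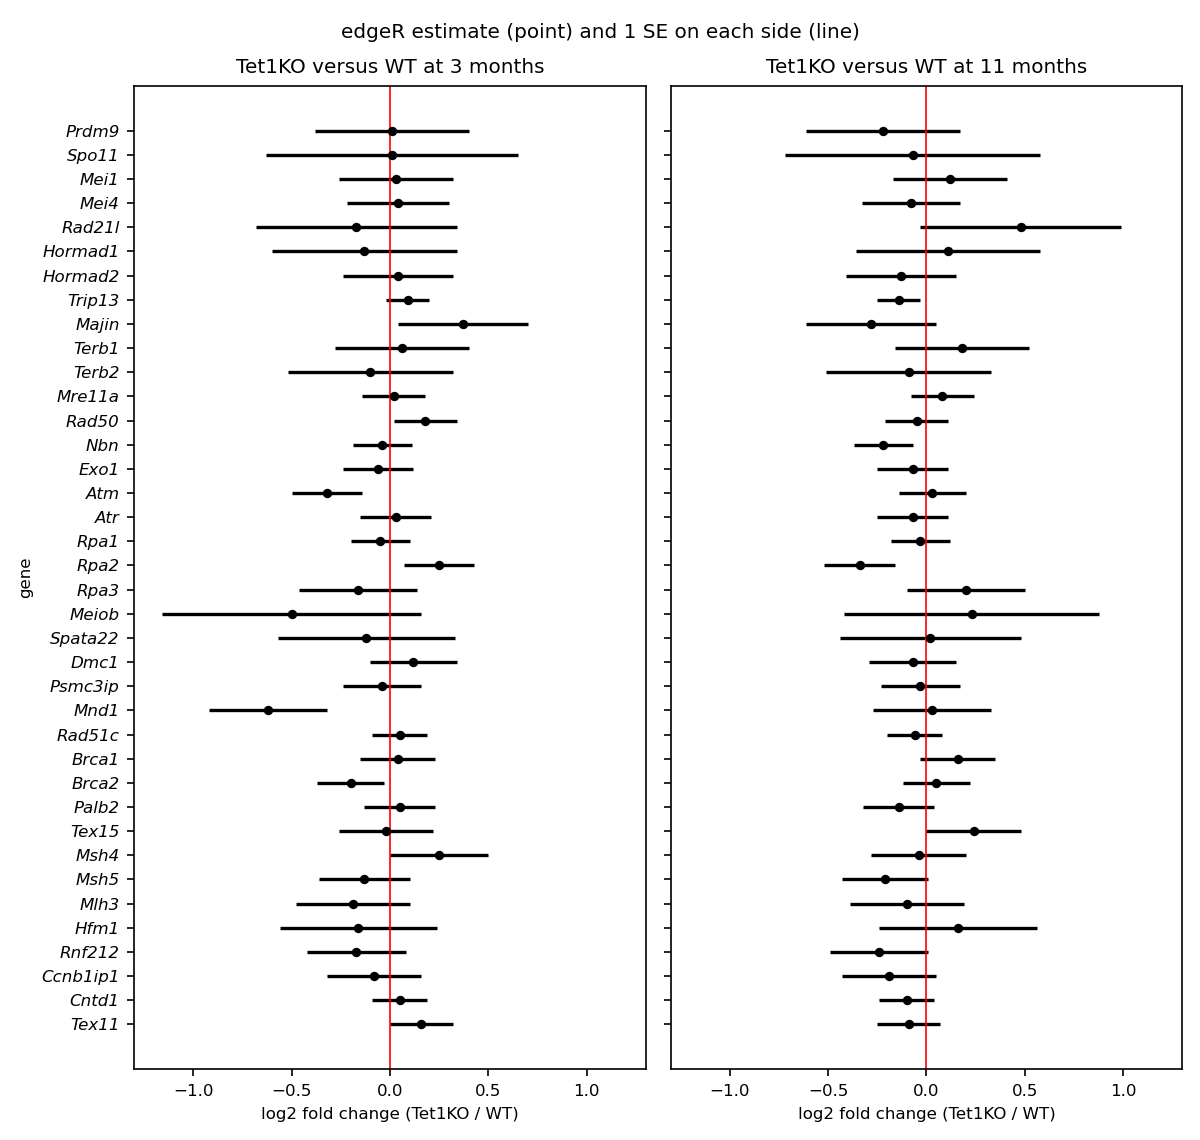
Log2 fold changes of Tet1KO over WT for the 38 members at 3 months (left) and 11 months (right), as edgeR estimates with 1 SE on each side and a line at 0. Estimates lie on both sides of 0 at both ages, from -0.62 (Mnd1) to 0.37 (Majin) at 3 months and from -0.34 (Rpa2) to 0.48 (Rad21l) at 11 months.

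Averaged over the ages, 12 members were higher (51.2% of all genes were higher) and 26 lower in Tet1KO, with a median log2 fold change of -0.027 against 0.0048, and 0 passed the edgeR test at an adjusted p (0% of all genes) or an unadjusted p under 0.05 (0.565% higher, 0.863% lower). Over these 6 against 6 libraries 0 members were higher without overlap (0.0202% of all genes) and 0 lower (0.0555%). The 5 smallest p-values belonged to Mnd1 (-0.30 ± 0.21), Nbn (-0.13 ± 0.11), Rnf212 (-0.21 ± 0.18), Atm (-0.14 ± 0.12) and Msh5 (-0.17 ± 0.16), none past the threshold. Whether the genotype difference itself changed with age was tested as an interaction, and 0 members passed it (0% of all genes). The difference was above 0 for 18 members (55.6% of all genes) and below for 20, with a median of -0.041 against 0.058. Rpa2 came nearest, because it was higher in Tet1KO at 3 months (277 ± 7.38 against 233 ± 37.8 CPM, SD, n = 3) and lower at 11 months (264 ± 44 against 333 ± 65 CPM). The difference of the log2 fold changes was -0.59 ± 0.26 (SE), with an unadjusted edgeR p of 0.0419 and an adjusted p of 1. At an unadjusted p under 0.05 it was 1 of 38 members, with 0.742% of all genes lower and 0.828% higher. Mnd1 (0.66 ± 0.42), Trip13 (-0.23 ± 0.16), Majin (-0.65 ± 0.46) and Atm (0.35 ± 0.25) followed.

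With age in WT, 16 members were higher at 11 months (43.6% of all genes were higher) and 22 lower, with a median log2 fold change of -0.014 against -0.058 over all genes (0.14 without WT replicate 3 of 3 months, 0.054 without WT replicate 3 of 11 months), and 0 passed the adjusted edgeR test (0% of all genes). Unadjusted p-values under 0.05 were reached by 3 members in edgeR, 1 in DESeq2 and 2 in limma-voom. In edgeR they were Rpa2 and Msh5, higher at 11 months (2.37% of all genes), and Spata22, lower (3.30%). Rpa2 averaged 233 ± 37.8 CPM at 3 months and 333 ± 65 CPM at 11 months (SD, n = 3). Its log2 fold change was 0.52 ± 0.18 (SE), with an unadjusted edgeR p of 0.0154 and an adjusted p of 0.774. Msh5 (0.52 ± 0.23), Spata22 (-1.03 ± 0.46), Trip13 (0.24 ± 0.11) and Nbn (0.27 ± 0.15) followed with the same adjusted p. Groups did not overlap for 5 members higher at 11 months (5.42% of all genes), Msh5, Nbn, Rpa2, Tex11 and Trip13, and for 1 lower (6.12%), Spata22. These 5 came from 4 roles, and 5 of 38 is 13.2%.

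With age in Tet1KO, 15 members were higher (48.0% of all genes were higher) and 23 lower, with a median of -0.041 against -0.014 over all genes, a value that became 0.14 without replicate 2 of 11 months. No member passed the adjusted edgeR test (0% of all genes) or an unadjusted p under 0.05 (0.858% higher, 1.47% lower), and DESeq2 and limma-voom called 0. Spata22 (-0.89 ± 0.46), Msh5 (0.44 ± 0.23), Rnf212 (-0.40 ± 0.25), Mnd1 (0.43 ± 0.30) and Spo11 (-0.92 ± 0.65) had the smallest p-values. Without Tet1KO replicate 2 of 3 months, the library with high pachytene markers, the Spo11 value turned to 0.35. Groups did not overlap for 1 member lower at 11 months (3.09% of all genes), Spata22, and for 0 higher (3.10%).

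Spata22 was lower at 11 months in every library of both genotypes, a comparison over 6 against 6 libraries that was added after these values were seen. It stood at 2.04, 1.74 and 2.55 CPM (WT) and 1.76, 1.67 and 2.40 CPM (Tet1KO) at 3 months, then at 1.07, 1.23 and 0.767 CPM (WT) and 0.739, 1.41 and 1 CPM (Tet1KO) at 11 months. The lowest library of 3 months (1.67 CPM) was above the highest of 11 months (1.41 CPM). Markers of some other cells were lower at 11 months too: all 10 pachytene spermatocyte markers (median log2 fold change -1.1 over the genotypes, -1.4 in WT and -0.69 in Tet1KO), all 6 peritubular myoid markers (-1.7) and 7 of 8 Sertoli markers (-0.87). Over the genotypes, 7 of 10 leukocyte markers (median 0.37) and 5 of 8 spermatid markers (0.09) were higher. WT replicate 1 and Tet1KO replicate 2 of 3 months, the libraries rich in pachytene markers, had 2.04 and 1.67 CPM of Spata22. The other 4 libraries of 3 months had 1.74 to 2.55 CPM. The part of all these cells in the Spata22 level was not tested. Averaged over the genotypes, its log2 fold change was -0.96 ± 0.32 (SE), with an unadjusted edgeR p of 0.0125 and an adjusted p of 0.636, so it did not pass. Of all genes, 0.136% were lower at 11 months without overlap and 0.121% higher, and among the members these counts were 1 and 0. The counts behind it were 17 to 31 per library at 3 months and 7 to 21 at 11 months, and reads in the exons shared with Gm49340 are included. Msh5 was higher at 11 months in all but 1 library, with 7.88 to 10.7 CPM over the 6 libraries of 3 months and 12.1 to 15.7 CPM over 5 libraries of 11 months, with Tet1KO replicate 3 of 11 months at 9.11 CPM. Its log2 fold change over both genotypes was 0.48 ± 0.16 (SE), with an unadjusted edgeR p of 0.0115 and an adjusted p of 0.636. In this comparison 16 members were higher (46.4% of all genes were higher), 1 member each reached an unadjusted p under 0.05 in the higher (2.20% of all genes) and lower (5.63%) direction, and 0 passed the adjusted test (0%). Rnf212 (-0.36 ± 0.18), Spo11 (-0.88 ± 0.46) and Nbn (0.18 ± 0.11) followed.

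Other genes of the pathway gave no call either. Of 64 such genes, among them the synaptonemal complex, Fanconi and checkpoint genes, 0 passed the adjusted edgeR test in any of the 7 comparisons. At 3 months 32 of the 64 were higher and 32 lower in Tet1KO (median log2 fold change -0.008), and at 11 months 27 were higher and 37 lower (-0.034). With age, 33 were higher in WT (median 0.024) and 36 in Tet1KO (0.02).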

How the data were processed

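RNA of 12 libraries (2 genotypes, 2 ages, 3 libraries each) was measured by Smart-seq2. The authors deposited raw read counts per gene for every library, made per the file headers with featureCounts 1.6.2 on GENCODE vM17 for read pairs, without strand, at a mapping quality of at least 30, with multi-mapping reads kept and a read over several genes given to each of them. HISAT2 and SAMtools, with versions not given in the sources used here, and build mm10 are named in the submitters' processing notes. The deposited table also gives each gene's merged exon length. Symbols came from a GENCODE vM21 table, which matched 53620 of 53715 genes. No per-sample column was left unused (0).

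Genes passing filterByExpr (19815) were scaled by TMM and fitted in edgeR 4.0.16 (R 4.3.3) with 1 mean per group and robust quasi-likelihood F tests, two-sided, adjusted by Benjamini-Hochberg over all of them at 0.05. SE was derived from the F statistic. The members, role groups and pathway list were chosen with earlier results of these data known, so lists are described by counts and medians and not tested. Names follow a rule: all members by role, with fold changes for those past the threshold or otherwise for the 5 smallest p-values of a comparison. Library values of Hfm1, Trip13, Spata22, Majin, Rad50 and Mnd1, the printed promoters, and the age comparison over both genotypes were chosen after values were seen. DESeq2 1.42.0 and limma 3.58.1 (voom with quality weights) were alternatives, beside other scalings, no filter, only the compared groups, the library code prefix as a covariate, a replicate block and libraries left out. Libraries of a group differed by more than counting noise (the lowest chi-square per degree of freedom was 9.85), so each counted as 1 replicate. Same-numbered WT and Tet1KO libraries deviated together at 11 months (r = 0.37, 0.17 and 0.33), but not at 3 months (-0.59, -0.18 and 0.30). Pairing at 11 months was thus read from the data alone. The main fit had no replicate block and so left that pairing out, and the block was run as an alternative only.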

Additional observations from a re-analysis of the deposited data

How the results depend on the processing

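Under every alternative run, including each library left out in turn, 0 members passed the adjusted threshold in any of the 7 comparisons. Over all genes edgeR called 0 in every setting, while DESeq2 called 2 at 3 months, 3 at 11 months, 2 averaged over the ages, 5 with age in Tet1KO and 21 with age over both genotypes. None was a member. Named after their values were seen, those of the genotype comparisons were S100a8, S100a9 and Tpm2, of which S100a8 and S100a9 were at 0 in 9 of the 12 libraries. The replicate block changed no call, with 0 members past the threshold and a member median of -0.064 at 11 months and -0.031 at 3 months. At 3 months the block joined libraries by number that did not deviate together, so it is no check of pairing there. WT replicate 1 and Tet1KO replicate 2 of 3 months did deviate together (r = 0.71). Member medians moved by less than the spread between single libraries of a group (0.19 on the log2 scale) in every alternative. That limit is wide beside the main medians themselves, so staying within it says little. With a library left out the medians ran from -0.074 to 0.16 at 3 months and -0.18 to 0.089 at 11 months. With age they ran from -0.068 to 0.14 in WT and -0.21 to 0.14 in Tet1KO. Their signs thus changed. Counts of genes at an unadjusted p under 0.05 also moved, for example from 225 to between 159 and 512 at 3 months with a library left out. Members at an unadjusted p under 0.05 numbered 0 at 3 months but up to 2 (with the replicate block), 0 at 11 months but up to 1 (with the replicate block or without Tet1KO replicate 1 or 2), 0 averaged over the ages but up to 1, 0 with age in Tet1KO but up to 2, 3 with age in WT but 1 to 3, 1 for the interaction but 0 to 2, and 2 with age over both genotypes but up to 4. Of the fold changes given for the 5 smallest p-values of each comparison, which are the only ones recomputed, those of Spo11 reversed: the change of Spo11 with age was 0.35 in Tet1KO (main value -0.92) and 0.11 over both genotypes (main value -0.88) with WT replicate 1 and Tet1KO replicate 2 of 3 months left out, and 0.35 in Tet1KO without Tet1KO replicate 2 of 3 months alone (range -1.28 to 0.35 over libraries left out). Depth limits Spata22 most, at 7 to 31 counts per library.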
